A study of Homo sapiens with 4 samples.

Results

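The T lineage surface receptors described here are 10 genes, CD2, CD4, CD5, CD6, CD7, CD8A, CD28, CD38, CD69 and ITM2A, of 60609 gene identifiers in the table. They were found by their deposited gene symbols, each of which matched 1 identifier, and all 10 were among the 27486 genes that entered the test, those averaging at least 1 normalized count. Total RNA was sequenced from CCRF-CEM/HA-AMPKa2 cells, 2 libraries per group. The No glucose group, with columns ONG_9 and ONG_10, spent 24 hours in medium without glucose. The Ctrl group, with columns CTRL_7 and CTRL_8, spent the same time in control medium and is labelled as having no treatment. CCRF-CEM is an established human T cell acute leukaemia line, grown here in RPMI with fetal bovine serum, and every library in each group comes from the derivative that carries HA-tagged AMPK alpha 2, a catalytic subunit of the energy-sensing kinase AMPK. The labels do not say whether the derivative is 1 clone or whether each replicate had its own culture. The p-values rest on how far these libraries differ among themselves, which may be technical spread. In limma the spread of each gene is also drawn toward that of other genes of similar level. The comparison asks how transcript levels differ after glucose deprivation.

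T cells carry a set of surface proteins that work beside the antigen receptor. CD4 and CD8 bind MHC molecules and bring the kinase LCK to the receptor, CD2 and CD28 add adhesion and costimulation, and CD5 and CD6 are scavenger receptor proteins that tune signal strength. CD69 and CD38 are used as activation markers in mature T cells, and CD7 and ITM2A appear early in the T lineage. Leukaemias that arise from thymocytes often keep CD4 and CD8 together, as cortical thymocytes do.

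The recovered reads numbered 19035535 and 20081266 in ONG_9 and ONG_10, against 96698709 and 24513840 in CTRL_7 and CTRL_8, so CTRL_7 was the deepest library by far. The T cell label was checked on 10 markers (CD3D, CD3E, CD3G, CD247, LCK, ZAP70, LAT, TCF7, GATA3 and BCL11B), all of which were detected, with summed normalized counts of 84103 and 84836 in No glucose and of 85110 and 83661 in Ctrl. The 7 B cell markers summed to 541 and 557 normalized counts in No glucose and to 935 and 915 in Ctrl, most of it CD79A, while MS4A1 and CD22 were at 0 in the No glucose libraries and reached at most 0.343 in Ctrl. The 6 natural killer markers summed to 432 and 487 in No glucose and to 283 and 273 in Ctrl. Of the other lists, the myeloid markers summed to 33.4 and 54.7 normalized counts in No glucose and to 40.2 and 44.1 in Ctrl, with MPO and FCGR3A at 0 throughout, and the erythroid markers summed to 3.03 and 7.02 in No glucose and to 4.81 and 5.35 in Ctrl. In such bulk RNA, fewer cells that carry a transcript and less of it per cell cannot be told apart, and surface protein was not measured.

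Without glucose, CD69 and CD28 transcripts were higher and those of CD7 and CD38 lower. CD69 rose 2.76-fold (95% interval 2.53 to 3.01) and CD28 rose 1.85-fold (1.64 to 2.09). CD7 fell to 0.530 of Ctrl (0.376 to 0.748) and CD38 to 0.852 (0.791 to 0.917). The other 6 did not pass the test, with log2 fold changes between -0.15 and 0.07. In all, 2 of 10 receptors were called higher and 2 lower at an adjusted p under 0.05 (limma with Benjamini-Hochberg adjustment over all genes tested), where 14.4% of all tested genes were called higher and 20.7% lower. Among the 10656 coding genes that average at least 50 normalized counts, a level that all 10 receptors reach, 66% were called, with 18.9% higher and 47.2% lower. The median log2 fold change of the receptors was 0.01, against 0.04 for all tested genes and -0.20 for those coding genes. Scaling to library totals in place of the authors' size factors gives a median of 0.23 over all tested genes in limma, and under it 6 receptors were called higher and none lower in limma, and 6 higher and 1 lower (CD7) in edgeR. CD69 and CD28 were called higher under all 16 alternative settings tried, while CD7 was called lower in 13 and CD38 in 12.

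**Figure D1:**
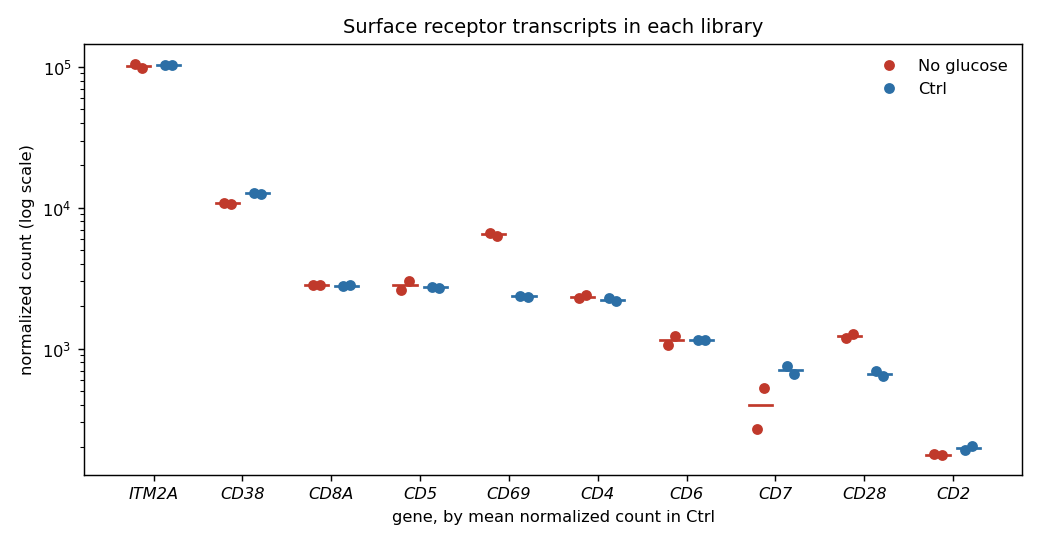
Normalized counts (log axis) of the 10 receptor genes in each library, ordered by their mean in Ctrl. Points are single libraries, 2 per group, and bars are group means. The No glucose points lie above the Ctrl points for CD69 and CD28 and below them for CD38, CD7 and CD2, and the CD7 points of No glucose lie far apart.

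Promoter windows from RefSeq (build GRCh38.p14, from 250 bases before to 50 bases after a start site) were held for 5 of the receptors, CD2, CD8A, CD28, CD38 and ITM2A, in 8 windows. Those of CD28, which rose, of CD38, which had the smaller called fall, and of ITM2A, the most abundant of the receptors, are shown to set the letters upstream of genes with different outcomes side by side. Capitals mark the letters TGTGGT of the RUNX motif and AGATAA of the GATA motif, and everything else is in lower case. The CD28 window lies on the plus strand at chr2:203706389-203706688, the CD38 window on the plus strand at chr4:15778078-15778377 and the ITM2A window on the minus strand at chrX:79367285-79367584.
CD28: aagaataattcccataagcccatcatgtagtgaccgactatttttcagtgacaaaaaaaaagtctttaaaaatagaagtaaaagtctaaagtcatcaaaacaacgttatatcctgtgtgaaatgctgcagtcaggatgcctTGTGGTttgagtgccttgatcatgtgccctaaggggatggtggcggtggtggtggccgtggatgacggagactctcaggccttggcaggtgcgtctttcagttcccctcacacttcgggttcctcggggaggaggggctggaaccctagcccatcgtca
CD38: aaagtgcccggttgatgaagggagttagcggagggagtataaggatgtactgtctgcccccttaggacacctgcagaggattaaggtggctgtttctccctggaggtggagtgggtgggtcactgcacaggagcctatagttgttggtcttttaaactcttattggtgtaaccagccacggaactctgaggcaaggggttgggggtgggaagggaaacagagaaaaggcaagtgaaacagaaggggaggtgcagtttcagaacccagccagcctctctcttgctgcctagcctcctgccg
ITM2A: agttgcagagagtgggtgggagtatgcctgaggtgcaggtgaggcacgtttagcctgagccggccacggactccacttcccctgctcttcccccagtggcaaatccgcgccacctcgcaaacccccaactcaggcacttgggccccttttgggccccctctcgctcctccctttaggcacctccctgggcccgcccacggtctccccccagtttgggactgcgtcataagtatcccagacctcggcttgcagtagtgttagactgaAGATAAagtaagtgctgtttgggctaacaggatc

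Each window was searched on each strand for exact letters. These were TGANTCA for AP-1, TGACGTCA for the cyclic AMP element, GGAANTTCC or else GGGANTTTC for NF-kB-like motifs, CANNTG for the E-box, AGATAA or else TGATAA for the GATA family, CCGGAAG for the ETS family, TGTGGT for the RUNX family, AAAGGTCA for the NR4A monomer, GCGTGGGCG or else GCGGGGGCG for the EGR family, and TATAAA for the core element of that name. No match overlapped another in the CD28, CD38 or ITM2A window. The CD28 window held TGTGGT with its first letter at position -109 from the start site, letters that 13.1% of 35116 promoter windows hold on either strand. The ITM2A window held AGATAA at position 17, letters that 10.3% of windows hold. E-box letters, which 68.7% of windows hold, stood at -89 and -24 in CD28, at -183 and -22 in CD38 and at -215 and -116 in ITM2A. The GC content of these windows was 48.3% for CD28, 54% for CD38 and 60% for ITM2A. These matches describe the letters only.

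CD69, a C-type lectin that appears on the surface of lymphocytes soon after stimulation, showed the largest rise among the receptors. The gene lies on the minus strand of chromosome 12 at 9752486 to 9760901 (hg38, GENCODE 29). CD69 had 6647 and 6308 normalized counts in ONG_9 and ONG_10, against 2359 and 2338 in CTRL_7 and CTRL_8. The 2 No glucose libraries were close to each other and far above the Ctrl libraries, which were closer still. The difference on the log2 scale was 1.46 ± 0.06 (SE, adjusted p from limma with Benjamini-Hochberg adjustment = 2.3e-08), and it lay between 1.35 and 1.67 under the alternatives. Of the 10656 coding genes, 89 had a larger rise. Within a library the scaling cancels: per length of exon, CD69 reads stood at 2.90 and 2.36 times those of CD5 in ONG_9 and ONG_10, against 0.972 and 0.989 times in CTRL_7 and CTRL_8. By this measure, which rests on the annotated exon length, CD69 was level with CD5 in Ctrl and above it without glucose.

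CD28, the receptor for CD80 and CD86 that delivers the main costimulatory signal to T cells, was the other receptor that rose. It lies on the plus strand of chromosome 2 at 203706475 to 203738912. CD28 had 1199 and 1264 normalized counts in ONG_9 and ONG_10, against 696 and 635 in CTRL_7 and CTRL_8. The groups did not overlap, and the gap between them was several times the gap within either. The log2 fold change was 0.89 ± 0.08 (SE, adjusted p = 5.1e-06, limma with Benjamini-Hochberg adjustment), with a range of 0.80 to 1.10 under the alternatives. Per length, CD28 reads were 0.303 and 0.275 of those of CD5 in ONG_9 and ONG_10, against 0.166 and 0.156 in CTRL_7 and CTRL_8. The rise of CD69 was larger than that of CD28, with CD69 at 9.56 and 8.61 times CD28 per length in the No glucose libraries and at 5.84 and 6.35 times in the Ctrl libraries. Transcripts of the CD28 ligands were scarce: CD80 had 7.6 and 1.4 normalized counts in the No glucose libraries and 6.87 and 6.69 in the Ctrl libraries. CD86 had 0 reads in ONG_9, ONG_10 and CTRL_8 and 0.343 normalized counts in CTRL_7.

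CD7, an immunoglobulin superfamily receptor for galectin-1 and SECTM1 and among the earliest markers of the T lineage, fell, but its 2 No glucose libraries disagreed. The gene lies on the minus strand of chromosome 17 at 82314868 to 82317602. CD7 had 270 and 523 normalized counts in ONG_9 and ONG_10, against 756 and 666 in CTRL_7 and CTRL_8. ONG_10 held 1.94 times the level of ONG_9, and each was below each Ctrl library. For CD7, as for each gene, the SE from limma also draws on the spread of other genes. It is therefore not the scatter of the CD7 libraries alone. On the log2 scale the change was -0.92 ± 0.22 (SE, adjusted p from limma with Benjamini-Hochberg adjustment = 0.0077). A fit without 1 library leaves 1 in its group, so its spread comes from the other group alone. Without ONG_9 or ONG_10, the gap between these 2 libraries is therefore left out of the SE. The log2 fold change of CD7 was -0.44 without ONG_9 and -1.39 without ONG_10. Without CTRL_7 it was -0.82 and not called. In DESeq2 it was -0.84 and not called (adjusted p = 0.15), and with scaling to library totals it was -0.71 and not called in limma (adjusted p = 0.081) and -0.63 and called in edgeR (adjusted p = 0.046). In the authors' deposited table CD7 has a log2 fold change of -0.84 with an adjusted p of 0.157.

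GC content was measured beside the disagreement over CD7, and its part in the CD7 result was not tested. CD7 has the most GC-rich transcript of the 10 receptors, 66.6% in its longest annotated form, and CD69 the least, at 36.5%. Across 10656 coding genes, the log2 difference of ONG_10 minus ONG_9 had a Pearson's r of 0.65 with GC content, a correlation across genes, which are not independent replicates. The median difference was -0.10 for the 1898 genes at up to 40% GC, and 0.53 for the 278 genes above 65%. CD7 itself stood at 0.95, and 49 coding genes, CD7 among them, had a gap between the No glucose libraries at least as large. The next largest gaps among the receptors were those of CD5 (0.22, at 57.8% GC) and CD6 (0.20, at 62.0%). Between CTRL_8 and CTRL_7 the median difference ran the other way, from 0.00 at up to 40% to -0.15 above 65%. The median log2 fold change between the groups also fell with GC, from -0.11 to -0.50 over the same classes. After a correction of each library for GC content, chosen after seeing the data, CD7 was at -0.57 (adjusted p = 0.00060), CD28 at 0.80 and CD69 at 1.35, all called. The correction takes out the GC trend between the groups as well as that between libraries of a group.

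**Figure D2:**
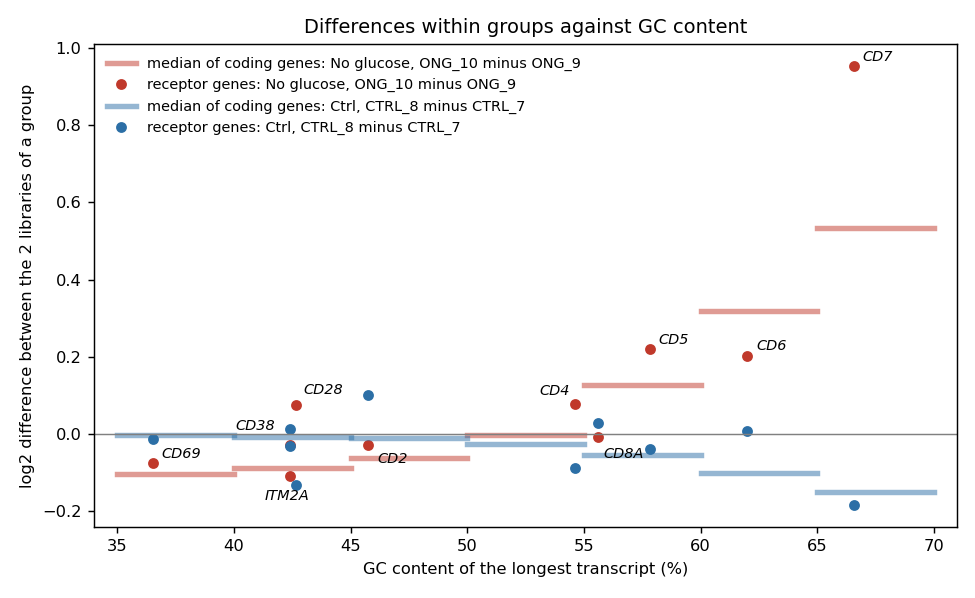
Log2 difference between the 2 libraries of a group (vertical axis) against GC content of the longest transcript in percent (horizontal axis). Points are the 10 receptors, named at their No glucose value, and horizontal bars are medians of coding genes in GC classes, with the outer classes drawn short. The No glucose medians climb from -0.10 to 0.53 with GC, and CD7 lies above them at 0.95.

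CD38, an ectoenzyme that consumes NAD and makes calcium-mobilising messengers, was slightly lower without glucose. It lies on the plus strand of chromosome 4 at 15778275 to 15853230. CD38 had 10871 and 10669 normalized counts in ONG_9 and ONG_10, against 12772 and 12511 in CTRL_7 and CTRL_8. The libraries of each group were close together and the groups did not overlap. The log2 fold change was -0.23 ± 0.05 (SE, adjusted p from limma with Benjamini-Hochberg adjustment = 0.0029). That is about the same as the median of -0.20 of all coding genes averaging at least 50 normalized counts, most of them far less abundant than CD38. With scaling to library totals it was -0.02 and not called in limma (adjusted p = 0.65) or in edgeR (adjusted p = 0.68). It was -0.22 without CTRL_7 and -0.25 without CTRL_8, and was called in neither fit. Relative to ITM2A, another abundant receptor transcript of nearly equal GC content (42.4% each), CD38 reads per length were 0.0308 and 0.0326 in ONG_9 and ONG_10, against 0.0374 and 0.0363 in CTRL_7 and CTRL_8. That ratio does not depend on the scaling and was lower in each No glucose library than in each Ctrl library.

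**Figure D3:**
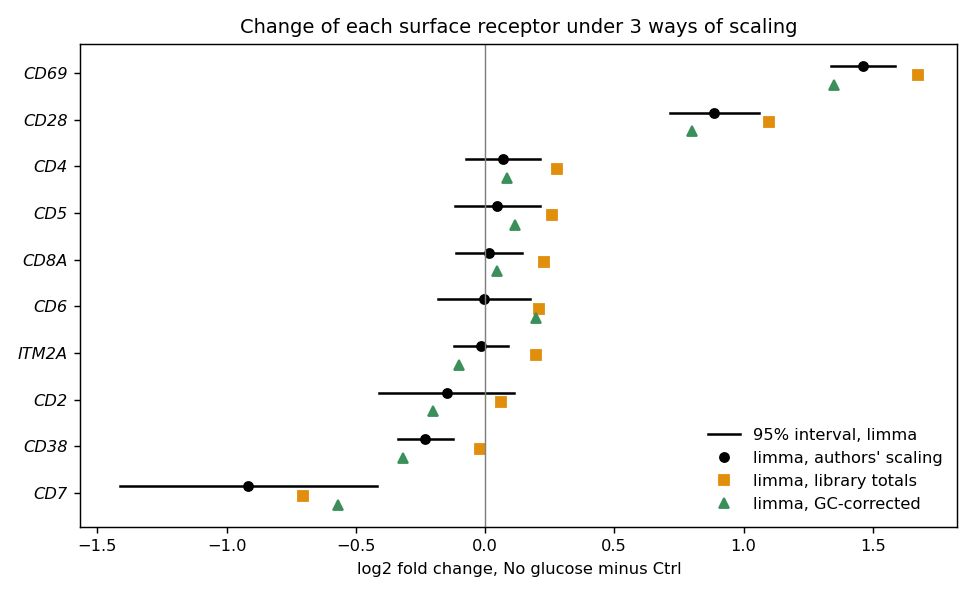
Log2 fold change of each receptor, No glucose minus Ctrl, from limma with the authors' scaling (circles, with lines for the 95% interval), with scaling to library totals (squares) and after GC correction (triangles). CD69 and CD28 lie to the right of 0 and CD7 to the left under all 3, while CD6, ITM2A and CD2 change side of 0 with the scaling.

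The coreceptors CD4 and CD8A, which bind MHC class II and class I, were both expressed and stood close to their control levels. CD4 had 2277 and 2404 normalized counts in ONG_9 and ONG_10, against 2300 and 2163 in CTRL_7 and CTRL_8, and the groups overlapped. CD8A had 2835 and 2823 in ONG_9 and ONG_10, against 2770 and 2828 in CTRL_7 and CTRL_8. The fitted log2 fold change was 0.07 for CD4 (95% interval -0.07 to 0.21, adjusted p = 0.45) and 0.02 for CD8A (-0.11 to 0.14, adjusted p = 0.87). With scaling to library totals they were 0.28 and 0.23 and called higher in limma (adjusted p = 0.0071 and 0.0067). The balance of the coreceptors, CD4 over CD8A per length, was 0.637 and 0.675 in the No glucose libraries and 0.658 and 0.607 in the Ctrl libraries, which overlap. CD8B, the partner chain of CD8A, fell where CD8A did not pass the test: it had 241 and 226 normalized counts in No glucose, against 410 and 361 in Ctrl (log2 fold change -0.72 ± 0.11, SE, adjusted p = 0.00027). CD8B has a near-identical copy, CD8B2, so its level is uncertain.

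CD5 and CD6, scavenger receptor cysteine-rich proteins that dampen or tune antigen receptor signals, lie side by side on chromosome 11, CD6 at 60971680 to 61020377 and CD5 at 61102395 to 61127852, each on the plus strand. CD5 had 2608 and 3036 normalized counts in ONG_9 and ONG_10, against 2760 and 2689 in CTRL_7 and CTRL_8. CD6 had 1069 and 1231 in ONG_9 and ONG_10, against 1146 and 1153 in CTRL_7 and CTRL_8. In each gene ONG_9 was the lowest library and ONG_10 the highest. The log2 fold change was 0.05 for CD5 (95% interval -0.12 to 0.21, adjusted p = 0.68) and -0.00 for CD6 (-0.18 to 0.17, adjusted p = 0.98). Per length, CD5 stood at 4.51 and 4.56 times CD6 in the No glucose libraries and at 4.45 and 4.31 times in the Ctrl libraries. The log2 fold change of CD5 was 0.16 without ONG_9 and -0.06 without ONG_10. CD5 was called higher after GC correction (0.12, adjusted p = 0.034) and with scaling to library totals in limma (0.26, adjusted p = 0.039). CD6 was called higher after GC correction (0.20, adjusted p = 0.013). The ligand of CD6, ALCAM, had 3468 and 3362 normalized counts in No glucose and 2831 and 2951 in Ctrl (log2 fold change 0.24 ± 0.06, SE, adjusted p = 0.0071), a call lost without CTRL_7 and without CTRL_8.

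CD2, the adhesion receptor for CD58, had the lowest group mean per length among the receptors in each group, although CD7 in ONG_9 was lower still. It lies on the plus strand of chromosome 1 at 116754385 to 116769228. CD2 had 179 and 175 normalized counts in ONG_9 and ONG_10, against 190 and 203 in CTRL_7 and CTRL_8. The groups did not overlap, but the gap was small and the smallest library held 118 CD2 reads. The fit gave a log2 fold change of -0.15 with a 95% interval of -0.41 to 0.11 (limma with Benjamini-Hochberg adjustment, adjusted p = 0.38), and 0.06 with scaling to library totals in limma. Counting CD2, 5 of 10 receptors had groups that did not overlap, as did 66.8% of all tested genes. Its ligand CD58 fell: it had 438 and 415 normalized counts in No glucose, against 647 and 700 in Ctrl (log2 fold change -0.66 ± 0.09, SE, adjusted p = 0.00011).

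ITM2A, a type II membrane protein with a BRICHOS domain that is expressed in thymocytes and raised during their positive selection, was by far the most abundant of the receptors. It lies on the minus strand of chromosome X at 79360384 to 79367667. ITM2A had 105540 and 97890 normalized counts in ONG_9 and ONG_10, against 102298 and 103183 in CTRL_7 and CTRL_8. The No glucose libraries lay on either side of the Ctrl libraries. This gave a log2 fold change of -0.02 with a 95% interval of -0.12 to 0.09 (adjusted p = 0.84). With scaling to library totals in limma it was 0.20 (adjusted p = 0.0013) and after GC correction -0.10 (adjusted p = 3.9e-05), so its direction depends on the scaling. Without ONG_9 it was -0.07 and without ONG_10 it was 0.04. Per length of exon, ITM2A ranked 9 among the 10656 coding genes over all libraries. In normalized counts per kilobase the receptors ran in No glucose from ITM2A (49593) through CD69 (2287), CD38 (1571), CD5 (876), CD8A (779), CD4 (511), CD28 (252), CD6 (193) and CD7 (145) to CD2 (106). In Ctrl the order was ITM2A (50093), CD38 (1844), CD5 (846), CD69 (829), CD8A (770), CD4 (487), CD7 (260), CD6 (193), CD28 (136) and CD2 (117), so that CD69 stood 4 in Ctrl and 2 without glucose. CD5 and CD8A were neighbours in No glucose, and their libraries did not overlap in either group. CD7, at 98.7 and 191 in No glucose, overlapped there with CD6, at 179 and 207, and with CD2, at 107 and 104.

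Outside the 10 receptors, 7 related lists of surface genes, their ligands and their intracellular partners held 103 genes. Of these, 92 were tested, 26 were called higher and 28 lower. The median log2 fold change was 0.10, against 0.04 for all tested genes and -0.20 for coding genes averaging at least 50 normalized counts. Of all tested genes 35.1% were called in either direction, and of those coding genes 66%. By direction, 14.4% of all tested genes were called higher and 20.7% lower, and of those coding genes 18.9% were higher and 47.2% lower. The same shares stand beside the count of each list below. With scaling to library totals in limma the split was 34 higher and 19 lower. It was 18 and 17 without CTRL_7 and 16 and 20 without CTRL_8. The plot of related surface gene lists shows that genes of opposite direction stand in most lists.

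**Figure D4:**
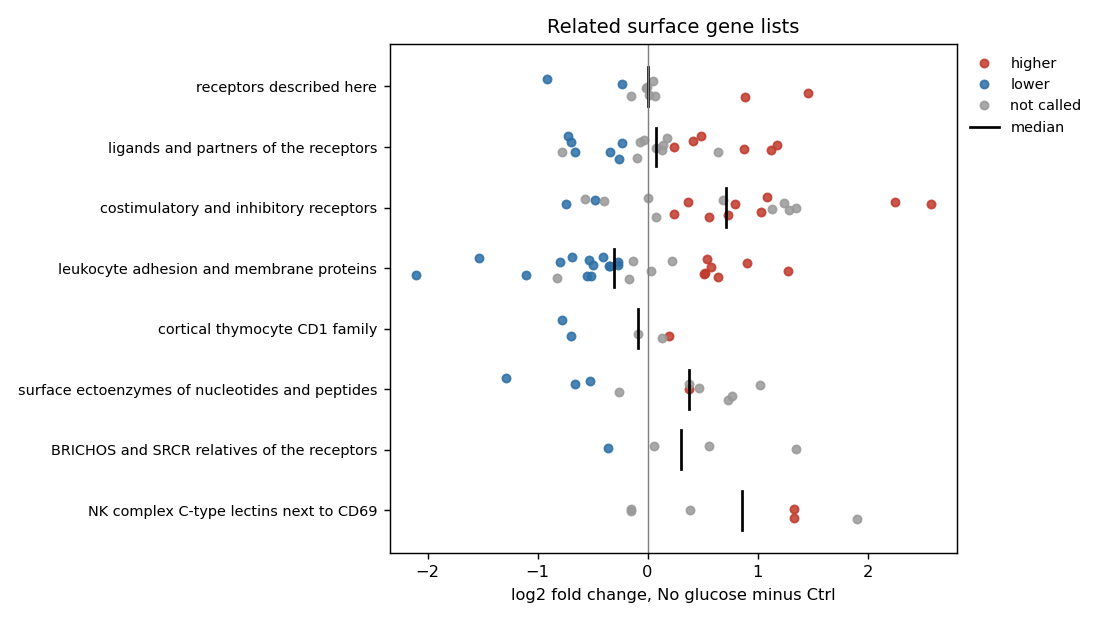
Log2 fold change, No glucose minus Ctrl, of each tested gene in the receptor group and in 7 related lists. Points are genes, coloured by whether limma called them higher, lower or neither, and black bars are list medians. The adhesion and membrane list has 14 lower and 7 higher genes, and the costimulatory and inhibitory list 9 higher and 2 lower.

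Near CD69 on chromosome 12 lie other C-type lectin genes of the natural killer complex. Of 9 listed, 6 were tested, 2 rose and none fell. CLEC2B had 2638 and 2364 normalized counts in No glucose, against 969 and 1019 in Ctrl (log2 fold change 1.33 ± 0.07, SE). CLEC2D, the gene of the lectin LLT1 that binds CD161, had 866 and 817 in No glucose, against 333 and 333 in Ctrl (1.33 ± 0.08). The groups of each gene stood far apart. The gene of CD161, KLRB1, had 28.8 and 35.1 in No glucose and 20.6 and 28.1 in Ctrl (adjusted p = 0.33), and the coding gene nearest to CD69 on either side, CLECL1 and KLRF1, had at most 8.42 normalized counts in any library. Both CLEC2B and CLEC2D were called higher under all 16 alternatives.

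Ligands and partners of the receptors split evenly, with 6 of 21 tested genes higher and 6 lower (median 0.08). With scaling to library totals 10 were higher and 4 lower, and without CTRL_7 and without CTRL_8 3 were higher and 3 lower. LGALS3, galectin-3, had 126 and 125 normalized counts in No glucose, against 57.7 and 52.2 in Ctrl. LGALS1, galectin-1, a ligand of CD7, rose by 0.88 ± 0.09 (log2, SE), and PECAM1, a ligand of CD38, fell by 0.70 on the log2 scale. S1PR1, the sphingosine phosphate receptor that CD69 protein pulls from the surface, had 1431 and 1489 normalized counts in No glucose, against 1081 and 1002 in Ctrl. The kinase LCK, which binds the tails of CD4 and CD8, had 16504 and 17888 in No glucose and 18730 and 17947 in Ctrl (adjusted p = 0.21). SECTM1, the gene next to CD7 and the gene of a CD7 ligand, had at most 1.52 normalized counts in any library.

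Of 20 tested costimulatory and inhibitory receptors 9 rose and 2 fell (median 0.71), 5 and 2 without CTRL_7, 3 and 2 without CTRL_8, and 4 and 2 by DESeq2. With only genes averaging at least 10 normalized counts, 7 rose and 2 fell, and the median was 0.30. CD96, an immunoglobulin receptor for CD155, rose by 1.08 ± 0.09 and the SLAM family receptor LY9 by 1.04 ± 0.13 (log2, SE). SLAMF6, of the same family, fell by 0.74 on the log2 scale. HAVCR2 (TIM-3) rose by 0.80 ± 0.24, a call lost without CTRL_7, without CTRL_8, without ONG_9 and by DESeq2. CTLA4, the inhibitory relative and chromosomal neighbour of CD28, had 4.55 normalized counts in ONG_9 and 0 in the other 3 libraries. LAG3, next to CD4, had 165 and 167 in No glucose and 162 and 170 in Ctrl, which overlap.

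Of 26 tested leukocyte adhesion and membrane proteins 14 fell and 7 rose (median -0.31), against 9 lower and 8 higher under scaling by library totals. Among coding genes averaging at least 50 normalized counts, 47.2% were called lower and 18.9% higher. Without CTRL_7 8 fell and 7 rose, and without CTRL_8 10 fell and 7 rose. The tetraspanin CD63 had 523 and 533 normalized counts in No glucose, against 1497 and 1556 in Ctrl, and fell by 1.53 on the log2 scale, while the hyaluronan receptor CD44 rose by 0.90 ± 0.06 and the complement regulator CD55 by 1.28 ± 0.12. CD63, CD44 and CD55 kept these directions and calls under all 16 alternatives. CD99 is listed at 0 in every library, and whether that reflects absence or the counting was not tested.

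In the CD1 family, lipid-presenting molecules of cortical thymocytes, 2 of 5 genes fell and 1 rose (median -0.09). CD1D had 3895 and 3998 normalized counts in No glucose, against 6824 and 6716 in Ctrl, and CD1A had 1111 and 1142 in No glucose, against 1864 and 1792 in Ctrl. CD1C rose by 0.20 ± 0.06 (log2, SE), a call lost without CTRL_7 and without CTRL_8, and 3 of the 5 were called higher with scaling to library totals in limma and 2 in edgeR. Of the 10 tested ectoenzymes 3 fell and 1 rose (median 0.38), and 2 fell and 1 rose with library totals, by DESeq2 and without CTRL_7, CTRL_8 or ONG_10. With only genes averaging at least 10 normalized counts, 3 fell and 1 rose, and the ectoenzyme median was -0.52. ENTPD1 (CD39) fell by 1.29 and adenosine deaminase ADA by 0.66 on the log2 scale, and MME (CD10) rose by 0.37 ± 0.05. BST1, the neighbour and homologue of CD38, had 68.2 and 67.3 normalized counts in No glucose, against 100.3 and 95 in Ctrl (log2 fold change -0.52 ± 0.16, SE, adjusted p = 0.028). The BST1 call was lost in 6 of 16 settings, among them those without CTRL_7, without CTRL_8 and without ONG_10. Of the 4 tested BRICHOS and scavenger receptor relatives, ITM2C fell by 0.36 on the log2 scale and none rose (median 0.30). Their median was 0.05 with only genes averaging at least 10 normalized counts. The ITM2C call was lost without CTRL_7 and with scaling to library totals in limma.

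The nearest coding genes on each side of the receptors, fixed by position alone, are given as values only. GPR174, next to ITM2A, rose by 0.69 ± 0.05 (log2, SE), and GPR162, next to CD4, fell by 0.86. RAPH1, next to CD28, had 42.5 and 28.1 normalized counts in No glucose, against 13.1 and 6.69 in Ctrl. CSNK1D, next to CD7, was higher by 0.23 ± 0.07 (SE), a call lost without CTRL_7, without CTRL_8, without ONG_10 and with TMM scaling in limma. RMND5A, next to CD8A, fell by 0.33 on the log2 scale, a call lost without CTRL_7 and without CTRL_8. SLC15A3, next to CD6, fell by 0.75, a call lost in 6 of 16 settings, among them those without CTRL_7, without CTRL_8 and without ONG_10. IGSF3, next to CD2, had 3.03 and 5.61 normalized counts in No glucose, against 19.9 and 18.7 in Ctrl, a call of lower that was lost without CTRL_7 and by DESeq2. VPS37C, next to CD5, was higher by 0.46 ± 0.16 (SE, adjusted p = 0.049), a call lost in 8 of 16 settings, among them those without CTRL_7, without CTRL_8 and without ONG_10. PTGFRN, the other neighbour of CD2, was not called (adjusted p = 0.93), and FGFBP1 next to CD38 and TBX22 next to ITM2A are listed at 0 in every library. In GENCODE 29 no annotated gene overlaps any of the 10 receptors except a small nuclear RNA inside CD6, which had at most 1.52 normalized counts.

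In the authors' deposited table CD28, CD38 and CD69, 3 of the 10 receptors, have an adjusted p under 0.05, as have 37.8% of the 19053 genes with an adjusted p there. The authors' log2 fold changes are 1.46 for CD69, 0.88 for CD28 and -0.23 for CD38.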

How the data were processed

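RNA was extracted with the RNeasy Plus kit and sequenced from stranded total RNA libraries as single-end reads, per the labels' protocols. STAR 2.6.0c, RSEM 1.3.0, DESeq2 1.18.1 and hg38 are named in the submitters' processing notes; the annotation release and the counting strand are not given in the sources used here. The signal values are normalized counts, 1 per gene and library, divided by a size factor per library and deposited by the authors. Division of a library's values by the value of 1 read returned whole reads (tolerance 0.01) for 100% of the nonzero entries. The log2 values, score values (test statistics) and p-values are those of the authors' own comparison, as deposited, and are used only where the text names the deposited table. The table holds 2 kinds of column, and those named ONG were read as the No glucose group.

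The test was limma 3.58.1 with its trend option (R 4.3.3), two-sided, fitted to log2(normalized count + 1) of every gene averaging 1 normalized count or more. P-values were adjusted over all these genes by the Benjamini-Hochberg method, with a threshold of 0.05. Both groups share 1 spread per gene, which limma draws toward the spread of other genes of similar level. Fold changes on this scale understate the change of low genes. The design named this test for normalized counts. Fits were also run on simulated counts with the same relative spread for every gene and no difference between libraries linked to GC content. That setting is simpler than these data, so it does not show how the fits perform on them. Alternatives used edgeR 4.0.16, DESeq2 1.42.0 and limma-voom on recovered reads, TMM and library totals as scalings, no filter or a stricter one, pseudocounts of 0.5 and 5, and fits without each library; a loess correction for GC content was added after seeing the data. Lengths (union of exons), GC content and positions come from GENCODE 29. The receptors and lists were chosen with earlier results of these data known. Named besides the receptors were, per list, up to 3 called genes with the largest change and 1 of the other direction, at a mean of at least 20 normalized counts, the neighbours, markers and nearest patterns; ligands and partners named beside a receptor, such as CD58, ALCAM, CD80, S1PR1, LCK and KLRB1, were chosen after their values were seen. A gene that this rule names is not reported here.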

Additional observations from a re-analysis of the deposited data

How the results depend on the processing

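No paired analysis was possible because the table's columns carry none of the replicate numbers of the labels, so the fit with a replicate block was not run. Across 16 alternatives CD69 and CD28 stayed called higher. The count of receptors called higher, 2, was 6 with scaling to library totals in limma and in edgeR, and 4 after GC correction. The count called lower, 2, was 0 with library totals in limma, 1 with library totals in edgeR and 1 in DESeq2. Leaving out each library gave 2 to 3 receptors higher and 0 to 3 lower. Among all genes, 3948 were called higher and 5695 lower, and 6106 (limma) and 6735 (edgeR) were higher with library totals and 2436 in DESeq2, while leaving out each library gave 2027 to 4172 higher and 3318 to 6387 lower. The related lists had 16 to 26 genes higher and 17 to 30 lower in those 4 fits. Signs changed among uncalled receptors. The log2 fold change of CD2 was 0.062 with library totals in limma and 0.078 in edgeR, that of CD6 was 0.21 and 0.21, and that of ITM2A was 0.20 and 0.20. CD6 was at 0.0021 in edgeR with median-of-ratios scaling, 0.0015 in DESeq2 and 0.20 after GC correction. CD8A was at -0.026 in edgeR with TMM, -0.028 in limma with TMM and -0.018 in limma-voom. Leaving out each library gave -0.063 to 0.157 for CD5, -0.105 to 0.098 for CD6 and -0.070 to 0.039 for ITM2A. Why these values moved was not tested. In ONG_9, CD2 had 118 reads and CD7 178, so their relative counting error there is larger than that of the other receptors. Intervals and p-values cover these libraries only. Each fit without 1 library leaves 1 in that group. Calls kept or lost in such a fit rest on the spread of the other group alone.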

Other observations

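The genes whose pattern over the 4 libraries was most like that of CD69, by Euclidean distance of centred log2 values among 12284 genes averaging 50 or more normalized counts, were EPG5, an autophagy factor (distance 0.032), RAB3GAP1, a subunit of a RAB GTPase-activating complex (0.042), and the transcription factor KLF7 (0.062). Each rose with the 2 No glucose libraries close together, by 1.49 ± 0.06, 1.45 ± 0.06 and 1.42 ± 0.10 (log2, SE). Nearest to CD7 were TELO2, a factor for kinase complex assembly (0.075), STARD10 (0.081) and GNB1L (0.082). TELO2 had 293 and 609 normalized counts in ONG_9 and ONG_10, against 846 and 760 in CTRL_7 and CTRL_8, and a GC content of 66.3%, while STARD10 and GNB1L were at 57.0% and 61.2%. All 3 were called lower, and lost that call without CTRL_7, by DESeq2 and with library totals in limma. TELO2 and GNB1L also lost it with library totals in edgeR, and STARD10 without ONG_9. These genes were picked for their likeness over the same 4 libraries. Their directions and the gaps between their libraries follow from that choice and are no separate evidence. With 4 libraries such likeness describes these libraries only.

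Genes named for other lineages were also measurable in this T cell line and moved. Of all tested genes, 14.4% were called higher and 20.7% lower. Of coding genes averaging at least 50 normalized counts, 18.9% were called higher and 47.2% lower. Of 5 tested B lineage markers 3 fell and none rose: CD79A had 423 and 449 normalized counts in No glucose, against 670 and 663 in Ctrl, CD79B had 84.9 and 78.6 in No glucose, against 197 and 190 in Ctrl, and PAX5 had 10.6 and 4.21 in No glucose, against 32.6 and 29.4 in Ctrl. The PAX5 call was lost without CTRL_7. Of 6 tested natural killer markers 3 rose and none fell: NKG7, a cytotoxic granule protein, had 311 and 358 in No glucose, against 226 and 214 in Ctrl, the perforin gene PRF1 had 66.7 and 84.2 in No glucose, against 33.7 and 41.5 in Ctrl, and NCAM1 had 24.3 and 22.5 in No glucose, against 11 and 8.03 in Ctrl. The PRF1 call was lost without CTRL_7 and without ONG_10, and that of NCAM1 by DESeq2 and without any 1 of CTRL_7, CTRL_8 and ONG_10. Of 4 tested myeloid markers and 1 tested erythroid marker none was called by limma. At an unadjusted p under 0.05 the count was also 0 for each of these lists, and edgeR and DESeq2 also called 0. Of 5 tested adherent cell markers 2 rose and 1 fell. Vimentin (VIM), which lymphocytes also express, had 20179 and 19066 normalized counts in No glucose, against 15509 and 15019 in Ctrl, COL1A1 had 7.58 and 25.3 in No glucose, against 2.06 and 2.68 in Ctrl, and EPCAM had 423 and 383 in No glucose, against 482 and 535 in Ctrl. The VIM call was lost without CTRL_8, that of COL1A1 without CTRL_7 and without ONG_10, and that of EPCAM in 6 of 16 settings.

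Among the T cell markers used to check the label, CD3E rose and CD3G fell, by 0.54 ± 0.05 and -0.45 ± 0.05 (log2, SE), each under all 16 alternatives, while CD3D had 18922 and 17932 normalized counts in No glucose and 17325 and 17267 in Ctrl (adjusted p = 0.18). CD247 was higher by 0.20 ± 0.06, a call lost without CTRL_7 and without CTRL_8, and GATA3 by 0.46 ± 0.07. Of the 10 markers, limma and DESeq2 each called 3 higher and 1 lower, and edgeR with TMM called 3 higher and 4 lower.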
